A study of Arabidopsis thaliana with 15 samples.

Results

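Leaves of the double mutant pp1r3-2 topp4-1 were set against leaves of wild-type plants, gene by gene. The comparison took every gene with enough counts to test, 20037 of the 33024 in the table, in 3 double mutant and 3 wild-type libraries, 6 of the 15 libraries of the series. RNA was measured by poly-A RNA-seq in Arabidopsis thaliana leaves of the Columbia-0 ecotype, taken 21 days after germination from plants grown in a greenhouse with 16 h of light and 8 h of dark at 23 °C. No group received any further treatment. The groups are the double mutant (pp1r3-2 topp4-1), the single mutants pp1r3-2 and topp4-1, which carry 1 of its alleles each and are used here only for direct contrasts, and the wild type. The remaining genotype, topp-7m, entered the fit through its spread and is not compared. The series asks how the TOPP genes and PP1R3 relate to each other genetically.

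TOPP genes encode the catalytic subunits of type 1 protein phosphatase, an enzyme that removes phosphate from serine and threonine residues and takes its substrates and place in the cell from regulatory subunits, of which the series names PP1R3 as 1. In Arabidopsis, TOPP4 is known to dephosphorylate DELLA repressors of gibberellin signalling and the light-signalling factor PIF5, and topp4-1 is known as a dominant-negative allele. The kind of lesion in pp1r3-2 is not given in the sources used here, and no gene in the table has the symbol PP1R3, so its transcript was not examined. TOPP4 had 30.6 ± 2.73 CPM (counts-per-million, on library sizes scaled by TMM) in the double mutant and 30.8 ± 1.83 CPM in wild type (SD, n = 3 each), a level that does not check a dominant allele.

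Total counts ran from 18310335 to 19241457 in the double mutant libraries and from 18362312 to 19153778 in the wild-type libraries. Double mutant replicate 3 stood apart from the others of its group. The meristem gene STM had 183, 248 and 5 counts in double mutant replicates 1, 2 and 3, against 41, 44 and 89 counts in wild type, and KNAT1, of the same family, had 120, 144 and 2 counts against 39, 56 and 66. Over the list of 12 flower and meristem markers the summed level was 3.04 to 22.8 CPM (here on unscaled totals, as are the other summed levels) in the double mutant and 5.22 to 9.97 in wild type, with the lowest double mutant value in replicate 3. The defining markers of flower identity were at or near 0, apart from PI with 9, 21 and 41 counts against 3, 3 and 7. The 4 seed markers had at most 2 counts in any library, and of 6 root markers only SCR, which leaves also express, had more than 6. Leaf markers were abundant, with photosystem and light-harvesting genes at 66700 to 73100 CPM in the double mutant and 65400 to 80800 in wild type. Chloroplast genes took 0.0813% of the counts in wild-type replicate 3 and at most 0.018% in the other 5 libraries. How far double mutant replicate 3 and wild-type replicate 3 shape a result was measured by leaving each out, and is given where it matters.

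Of the 20037 genes, 2631 passed at an adjusted p under 0.05, which is 13.1% of those tested (edgeR quasi-likelihood test, Benjamini-Hochberg adjustment). Of these, 1534 rose, 7.66% of the genes tested, and 1097 fell, 5.47%. The counts in the gene lists below are read against these shares, and a single call in a list of 10 or more genes is near them. Counting only changes of 2-fold or more, 546 genes were called (2.72%), 247 higher (1.23%) and 299 lower (1.49%). The median size among called genes was 0.58 on the log2 scale for rises and 0.65 for falls, and 104 genes fell by 4-fold or more while 27 rose that much. At 8-fold or more there were 38 falls and 6 rises. Among genes with a symbol in the table, separate groups and a mean of at least 5 CPM, those that fell furthest included genes of jasmonate turnover, AP2/ERF factor genes and cold and drought genes, and those that rose furthest included a squalene epoxidase, a phytochrome kinase substrate and a morning clock factor. Without double mutant replicate 3 there were 1438 calls, without wild-type replicate 2 there were 1596, and without wild-type replicate 3 there were 1379. The fit of the 6 libraries alone gave 1342. Of 156 called genes of the lists and the largest changes, 95 kept their call whichever of the 6 libraries was left out, and 61 lost it without at least 1 of them. Because whole leaves were sampled, fewer cells of a type and less RNA per cell cannot be told apart in any of these results.

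**Figure D1:**
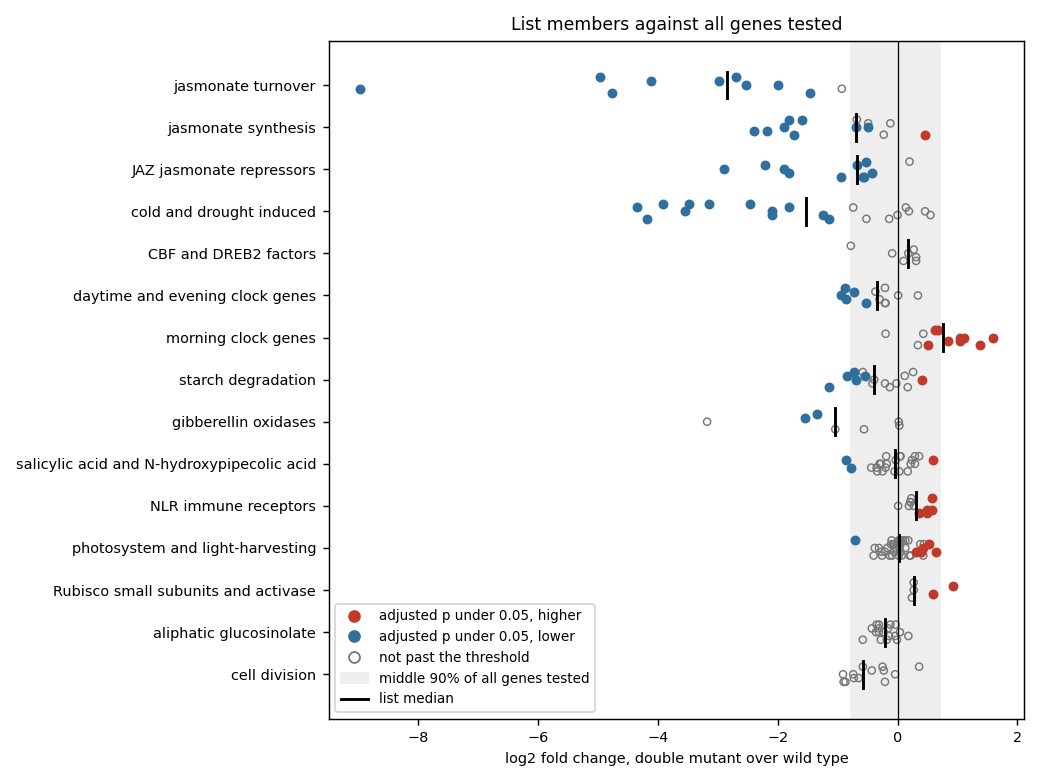
Log2 fold change, double mutant over wild type, of every tested member of 15 gene lists (rows); each point is 1 gene, filled where the adjusted p was under 0.05 (red higher, blue lower), black bars are list medians and the grey band spans the middle 90% of all genes tested. Members of the 3 jasmonate lists and of the cold and drought list reach far to the left of the band, with list medians of -2.84, -0.70, -0.68 and -1.53, while the morning clock list has a median of 0.76.

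The short motifs looked for stood upstream of some called genes of a list and not of others. Shown first are the upstream sequences of a few called genes that hold them. Each is the stretch of 300 bases before the annotated gene start, on the TAIR10.1 assembly, whose coordinates match the deposited table, written 5′ to 3′ along the gene's strand and free of annotated exons. Capitals mark every match, on either strand, to the motif named. The first 3 belong to cold and drought genes that fell in the double mutant, and capitals mark the core of the CRT/DRE element (CCGAC), which CBF and DREB2 factors bind, and the core of the abscisic acid response element (ACGTG). RD29A lies on the plus strand (chr5:21240417-21240716), COR15A on the minus strand (chr2:17712331-17712630) and GOLS3 on the plus strand (chr1:3019339-3019638).
RD29A: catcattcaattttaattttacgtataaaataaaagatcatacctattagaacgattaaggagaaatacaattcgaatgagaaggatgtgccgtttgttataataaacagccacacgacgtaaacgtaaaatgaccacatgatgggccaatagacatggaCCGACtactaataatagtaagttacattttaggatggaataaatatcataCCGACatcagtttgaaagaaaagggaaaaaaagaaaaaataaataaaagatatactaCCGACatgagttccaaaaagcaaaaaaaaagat
COR15A: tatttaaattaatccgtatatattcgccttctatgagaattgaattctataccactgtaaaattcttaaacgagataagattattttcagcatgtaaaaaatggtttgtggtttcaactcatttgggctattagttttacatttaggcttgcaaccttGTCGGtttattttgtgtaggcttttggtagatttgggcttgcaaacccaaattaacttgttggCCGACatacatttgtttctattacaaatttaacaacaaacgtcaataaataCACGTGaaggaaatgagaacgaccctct
GOLS3: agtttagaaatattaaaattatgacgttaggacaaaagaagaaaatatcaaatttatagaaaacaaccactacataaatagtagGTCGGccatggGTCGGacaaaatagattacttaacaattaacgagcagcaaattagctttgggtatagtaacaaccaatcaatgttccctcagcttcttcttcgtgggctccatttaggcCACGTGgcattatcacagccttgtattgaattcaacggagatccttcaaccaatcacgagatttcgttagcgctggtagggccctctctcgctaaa
The RD29A window held the CRT/DRE core 140, 90 and 33 bases before the start, the COR15A window 142 and 79 bases before it and the GOLS3 window 216 and 205 bases before it. In COR15A and GOLS3 the 2 strands of ACGTG overlap as a G-box (CACGTG).

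The next 3 windows belong to evening clock genes that fell, with capitals on the evening element (AAAATATCT), a site known to be bound by the morning factors CCA1, LHY and RVE8. PRR5 lies on the minus strand (chr5:8358547-8358846), LUX on the plus strand (chr3:17182742-17183041) and FKF1 on the plus strand (chr1:25508339-25508638).
PRR5: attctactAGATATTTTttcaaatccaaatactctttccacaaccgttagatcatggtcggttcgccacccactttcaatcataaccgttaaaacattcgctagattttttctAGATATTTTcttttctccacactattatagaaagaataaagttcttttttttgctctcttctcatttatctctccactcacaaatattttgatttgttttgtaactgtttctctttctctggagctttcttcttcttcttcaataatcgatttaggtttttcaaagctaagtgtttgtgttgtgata
LUX: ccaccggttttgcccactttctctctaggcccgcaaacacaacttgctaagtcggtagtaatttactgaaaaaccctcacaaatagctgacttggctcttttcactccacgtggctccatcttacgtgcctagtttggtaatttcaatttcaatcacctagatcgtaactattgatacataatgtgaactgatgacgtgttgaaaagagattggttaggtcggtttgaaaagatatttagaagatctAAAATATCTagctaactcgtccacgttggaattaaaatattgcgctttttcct
FKF1: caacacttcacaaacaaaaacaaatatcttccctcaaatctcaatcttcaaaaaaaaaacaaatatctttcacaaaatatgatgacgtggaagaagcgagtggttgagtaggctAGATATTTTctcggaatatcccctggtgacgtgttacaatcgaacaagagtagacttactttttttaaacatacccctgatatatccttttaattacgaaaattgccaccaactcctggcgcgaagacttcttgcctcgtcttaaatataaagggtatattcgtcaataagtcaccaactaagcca
The element stood 292 and 187 bases before the start of PRR5, 53 bases before that of LUX and 186 bases before that of FKF1.

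The last 2 are CCA1, a morning clock gene that rose (chr2:19245291-19245590, plus strand), and JAZ7, a jasmonate repressor gene that fell (chr2:14572730-14573029, plus strand), with capitals on the G-box (CACGTG), a site of bHLH factors such as PIF and MYC proteins and of bZIP factors.
CCA1: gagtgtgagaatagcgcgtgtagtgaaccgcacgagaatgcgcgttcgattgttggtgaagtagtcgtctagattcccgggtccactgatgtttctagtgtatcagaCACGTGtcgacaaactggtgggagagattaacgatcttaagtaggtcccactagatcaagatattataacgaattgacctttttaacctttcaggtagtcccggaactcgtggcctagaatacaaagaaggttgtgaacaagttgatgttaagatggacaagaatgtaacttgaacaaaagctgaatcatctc
JAZ7: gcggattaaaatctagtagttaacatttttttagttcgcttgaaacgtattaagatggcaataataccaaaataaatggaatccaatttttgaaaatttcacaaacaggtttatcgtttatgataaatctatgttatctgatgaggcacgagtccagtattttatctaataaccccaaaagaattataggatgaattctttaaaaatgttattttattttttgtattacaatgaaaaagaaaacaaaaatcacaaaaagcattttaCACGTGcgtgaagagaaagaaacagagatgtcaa
Such windows could be read for 19813 tested genes. The evening element was in 7.44% of the windows of genes that fell, 2.18% of those of genes that rose and 2.94% of all windows. The CRT/DRE core was in 21.8% of windows of genes that fell, 10.7% of those of genes that rose and 15% of all. The ABRE core, which every G-box contains, was in 35%, 28.8% and 25.9% of the same 3 sets, and the G-box itself in 12.1%, 9.62% and 7.95%. A match is a description of the letters and not a measured site.

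Genes of jasmonate metabolism fell in the double mutant almost as a block. Jasmonates are lipid hormones of wounding and defence, made in plastids and peroxisomes from linolenic acid, sensed through the JAZ repressors and removed by oxidation, conjugation and hydrolysis. Of 13 tested synthesis genes 8 fell and 1 rose, of 11 JAZ genes 10 fell, and of 10 turnover genes 9 fell, against 5.47% of all genes tested. Leaving out any 1 library gave 7 to 8 falls in the synthesis list and 9 in the turnover list, and 6 to 10 in the JAZ list, with 6 without double mutant replicate 3 or without wild-type replicate 3. The calls of JAZ3, JAZ6, JAZ8, JAZ9 and JAR1 were the ones lost, at adjusted p = 0.0509 to 0.105 without double mutant replicate 1, 2 or 3 or wild-type replicate 2 or 3.

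Among synthesis genes, the allene oxide cyclase gene AOC3 had 18.6, 15.5 and 15.5 CPM in the double mutant, against 52.1, 90.2 and 119 CPM in wild type. All 3 double mutant libraries lay below all wild-type libraries, and wild type was the more variable group. The log2 fold change was -2.40 ± 0.24 (SE; adjusted p = 2.74e-05). OPR3, which encodes the peroxisomal reductase of the pathway, had 64.1, 71.4 and 62.9 CPM in the double mutant and 147, 216 and 339 CPM in wild type, and fell by 1.82 ± 0.21 on the log2 scale (adjusted p = 0.000103). LOX3, a 13-lipoxygenase gene, fell by 2.18 ± 0.30 (adjusted p = 0.000625). AOC2, AOS, AOC1, OPCL1 and JAR1, the last encoding the enzyme that joins jasmonic acid to isoleucine, fell by 0.49 to 1.89 on the log2 scale. The exception was the lipoxygenase gene LOX6, which rose by 0.45 ± 0.09 (adjusted p = 0.00498). LOX2, the leaf 13-lipoxygenase with 511, 660 and 642 CPM in the double mutant against 840, 985 and 1080 CPM in wild type, did not pass (log2 fold change -0.68 ± 0.23, adjusted p = 0.0688), though its groups did not overlap.

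The JAZ proteins repress jasmonate transcription factors and are themselves jasmonate-induced. JAZ10 (chr5:4218786-4221077) had 5.18, 6.24 and 3.84 CPM in the double mutant, against 22.6, 44.0 and 46.6 CPM in wild type. The groups were well apart, and the log2 fold change was -2.89 ± 0.28 (adjusted p = 1.77e-05). JAZ5 and JAZ7 fell by 1.90 ± 0.24 and 1.82 ± 0.26, and JAZ8 by 2.22 ± 0.63. JAZ1, JAZ2, JAZ3, JAZ6, JAZ9 and JAZ12 fell by less, between 0.42 and 0.95. The ABRE core was in the upstream windows of 9 of the 10 JAZ genes that fell and the G-box in 4 of them, against 25.9% and 7.95% of all windows.

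The turnover list held the lowest log2 fold change of all genes tested. CYP94B3 (chr3:17974853-17976774), encoding the cytochrome P450 that hydroxylates jasmonoyl-isoleucine, had 0.0545, 0.103 and 0 CPM in the double mutant and 19.6, 29.0 and 42.3 CPM in wild type. In counts this was 3 over all double mutant libraries and 1724 over all wild-type libraries, a ratio of 0.00175 with an exact 95% counting interval of 0.00036 to 0.00512. Even the lowest wild-type library was far above all 3 double mutant libraries. CYP94C1, whose product oxidises the hydroxylated hormone further, had 5.83, 7.32 and 5.93 CPM in the double mutant, against 35.9, 54.6 and 60.3 CPM in wild type, and fell by 2.98 ± 0.21 (adjusted p = 5.12e-07). CYP94B1 fell by 4.96 ± 0.51. ST2A, a sulfotransferase gene for 12-hydroxyjasmonate, had 2.94, 0.773 and 0.847 CPM in the double mutant and 25.1, 24.1 and 30 CPM in wild type, a fall of 4.12 ± 0.64 (adjusted p = 0.00137). The amidohydrolase genes ILL6 and IAR3 fell by 1.99 ± 0.25 and 1.46 ± 0.21, and the jasmonate methyltransferase gene JMT by 2.70 ± 0.59. The 2OG-Fe(II) oxygenase genes AT2G38240 and AT5G05600, which the list also holds, fell by 4.76 ± 0.29 and 2.53 ± 0.30. JRG21, the remaining tested member, had a log2 fold change of -0.93 ± 0.50 that did not pass (adjusted p = 0.252). None of the 9 upstream windows of the called turnover genes held the G-box letters.

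**Figure D2:**
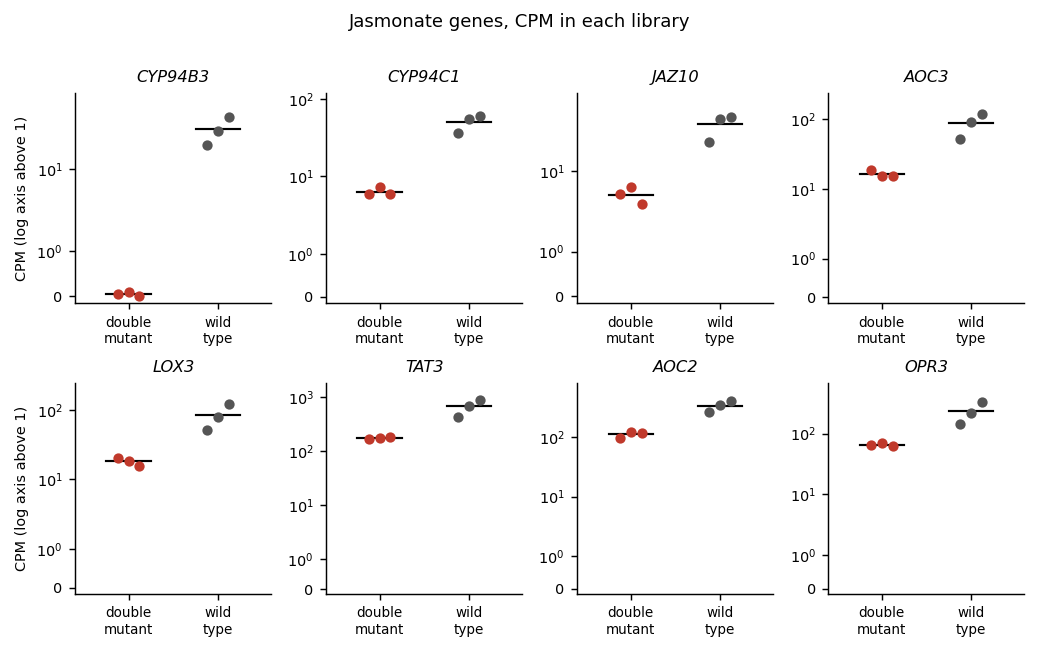
CPM in each library (points; vertical axis logarithmic above 1 CPM) for 8 jasmonate genes, double mutant left and wild type right, with bars at the group means of 3 libraries. In every panel the 3 double mutant libraries lie below the 3 wild-type libraries, and CYP94B3 has means of 0.0525 CPM in the double mutant and 30.3 CPM in wild type.

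Genes that respond to the hormone were tested as a list of their own. TAT3, a jasmonate-induced tyrosine aminotransferase gene, had 166, 174 and 187 CPM in the double mutant, against 438, 689 and 913 CPM in wild type, and fell by 1.95 ± 0.29 (adjusted p = 0.000704). The groups did not overlap and the double mutant libraries were close together. CLH1 and CORI3, also jasmonate-induced, fell by 1.62 ± 0.27 and 1.53 ± 0.31. These were the 3 falls among 8 tested MYC factors and jasmonate targets, 37.5% against 5.47% of all genes tested. The other 5 did not pass. The factor genes MYC3 and MYC4 had log2 fold changes of 0.12 ± 0.10 and 0.37 ± 0.15, which did not pass (adjusted p = 0.425 and 0.11). Of 9 tested genes of the defence branch that needs ethylene as well, only the defensin gene PDF1.2B fell (43.6, 16.8 and 9.43 CPM in the double mutant, 225, 46.6 and 221 CPM in wild type, adjusted p = 0.0251), and it did not pass without double mutant replicate 2 or 3 or without wild-type replicate 1 or 3 (adjusted p = 0.0831, 0.101, 0.0551 and 0.0784). Its near-identical copy PDF1.2A had 361, 119 and 66.2 CPM in the double mutant and 759, 321 and 762 CPM in wild type, with overlapping groups. Reads of these copies may be split by the counting, so neither is certain alone.

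Of the 10 genes with the lowest fold changes among those with a symbol, separate groups and a mean of at least 5 CPM, 3 were in no list. ABR1 and RAP2-6, encoding factors of the AP2/ERF family, had 0.763, 0.309 and 0.282 CPM and 1.36, 0.567 and 1.07 CPM in the double mutant, against 16.3, 17.5 and 28.4 CPM and 31.1, 34.3 and 41.8 CPM in wild type. They fell by 5.50 ± 0.35 and 5.16 ± 0.40 on the log2 scale (adjusted p = 1.95e-07 and 1.93e-06). CYP82G1, which makes a volatile homoterpene emitted by damaged leaves, had 0.412 to 0.600 CPM in the double mutant and 6.16 to 23.1 CPM in wild type, and fell by 4.94 ± 0.62 (adjusted p = 0.000179).

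Genes of cold and drought protection formed the other large group of falls. Dehydrins, COR and KIN proteins shield membranes and proteins from water loss, and their genes are induced through CBF and DREB2 factors and through abscisic acid. Of 20 tested genes of this list 12 fell, 60% against 5.47% of all genes tested, and none rose, with 12 to 13 falls when any 1 library was left out. XERO2 (chr3:18940643-18941611), a dehydrin gene, had 2.07, 2.17 and 1.52 CPM in the double mutant, against 39.1, 37.7 and 41.4 CPM in wild type. Both groups were tight, and it had the smallest adjusted p of all genes tested (log2 fold change -4.35 ± 0.21, adjusted p = 2.11e-08). RD29A (chr5:21240717-21243644), the classic reporter gene of cold and dehydration, had 30.6, 51.9 and 33.5 CPM in the double mutant and 333, 448 and 526 CPM in wild type, and fell by 3.49 ± 0.24 (adjusted p = 8.12e-07). COR15A, for a chloroplast protein that protects membranes in freezing, had 4.96, 5.00 and 2.6 CPM in the double mutant and 31.2, 63.3 and 96.8 CPM in wild type, and fell by 3.92 ± 0.39 (adjusted p = 4.65e-05).

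The dehydrin genes ERD10, COR47 and ERD14 fell by 3.15 ± 0.19, 2.09 ± 0.17 and 1.24 ± 0.14. KIN1 and KIN2 fell by 3.55 ± 0.47 and 2.46 ± 0.26, COR15B, COR413PM1 and COR413IM1 by 1.15 to 2.09, and the galactinol synthase gene GOLS3 by 4.19 ± 0.64. All 12 had their 3 double mutant libraries below their 3 wild-type libraries. Of all genes tested, called or not, 14% had this order. Since the 12 were chosen by their calls, this is a description only. The abscisic acid marker RD29B, a neighbour of RD29A in name and on the chromosome, had 0.981, 1.65 and 0.847 CPM in the double mutant against 1.07, 0.413 and 0.903 CPM in wild type, with overlapping groups and no call (log2 fold change 0.55 ± 0.43, adjusted p = 0.432). In the upstream windows of the 12 genes that fell, the CRT/DRE core was in 7 and the ABRE core in 6. Over all 20 tested genes of the list, fallen or not, the CRT/DRE core was in 10 and the ABRE core in 13. Of all windows, 15% and 25.9% held them. Whether either motif bears on the falls was not tested.

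Of the 7 tested genes in the list of CBF, DREB2 and ZAT factors none was called. CBF1, CBF2 and CBF3 averaged 1.33 ± 0.677, 1.62 ± 0.365 and 0.892 ± 0.48 CPM in the double mutant and 1.25 ± 0.24, 1.73 ± 0.407 and 1.54 ± 0.822 CPM in wild type (SD, n = 3 each), and their groups overlapped. At such levels a moderate difference was not detectable. DREB1E and DREB1F, of the same family but in no list and chosen after their values were seen, had 0 counts in all 3 double mutant libraries, against 33, 39 and 28 counts and 14, 36 and 34 counts in wild type (adjusted p = 0.00182 and 0.000902). Among 17 tested genes for abscisic acid receptors, kinases and ABF factors, ABF3 and ABF4 rose by 0.55 ± 0.12 and 0.41 ± 0.10, and the receptor gene PYL4 fell by 0.39 ± 0.09. This is 11.8% and 5.88% of the list, near the 7.66% and 5.47% of all genes tested. Among 7 tested clade A PP2C genes, whose products hold abscisic acid signalling off, HAB1 rose by 0.54 ± 0.12 (adjusted p = 0.00708) and no other passed. ABF4 and PYL4 lost their calls without 1 or 2 libraries (double mutant replicate 3 and wild-type replicate 3 for ABF4, wild-type replicate 2 for PYL4, adjusted p = 0.0637 to 0.0847).

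**Figure D3:**
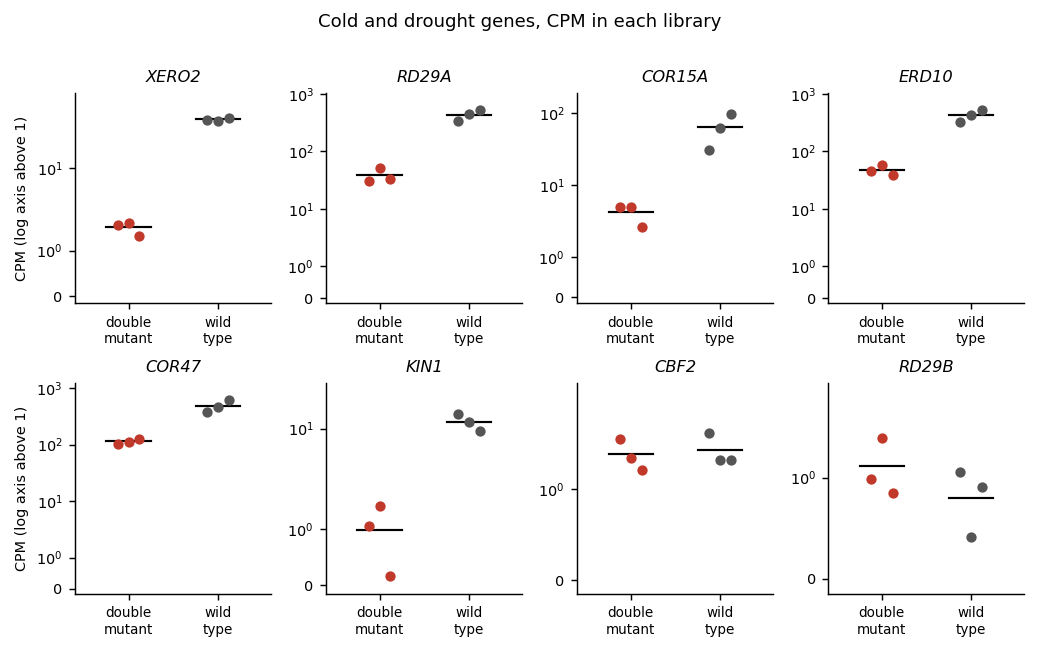
CPM in each library (points; vertical axis logarithmic above 1 CPM) for 6 cold and drought genes that fell, 1 CBF factor gene and the abscisic acid marker RD29B, double mutant left and wild type right, with bars at the group means of 3 libraries. The first 6 panels show separate groups, such as 38.7 CPM in the double mutant against 435 CPM in wild type for RD29A, and the groups overlap in the panels of CBF2 and RD29B.

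The called circadian clock genes split by the time of day at which they are known to peak. CCA1, LHY and the related RVE factors are expressed around dawn and repress evening genes or, in the case of RVE8 and RVE4, activate them together with LNK proteins. The PRR genes, GI, FKF1, LUX and their partners follow from day to evening. Of 12 tested morning genes 9 rose and none fell, against 7.66% of all genes tested that rose. Of 12 tested daytime and evening genes 5 fell and none rose, against 5.47% of all genes tested that fell. The other 7 did not pass, and the list ran from -0.95 to 0.34 on the log2 scale. With any 1 library left out there were 7 to 10 rises in the first list and 3 to 6 falls in the second. The 6 libraries alone gave 9 rises and 2 falls. RVE2, RVE7, PRR5, FKF1 and GI each lost their call without at least 1 library, double mutant replicates 1 and 2 or a wild-type library, at adjusted p = 0.0531 to 0.0624. The hour of sampling is not given in the sources used here.

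RVE1 (chr5:5690225-5692992), which links the clock to auxin, had 87.9, 74.2 and 90.5 CPM in the double mutant, against 26.8, 28.0 and 29.2 CPM in wild type. Every double mutant library was far above the tight wild-type group (log2 fold change 1.59 ± 0.11, adjusted p = 5.41e-07). CCA1 had 154, 139 and 183 CPM in the double mutant and 69.6, 45.6 and 67.7 CPM in wild type, and rose by 1.38 ± 0.16 (adjusted p = 5.41e-05). LHY rose by 1.11 ± 0.15, RVE8 by 1.05 ± 0.13 and LNK2 by 1.04 ± 0.15. RVE4, LNK1, RVE2 and RVE7 rose by 0.51 to 0.85. RVE6, LNK3 and LNK4 did not pass, at -0.20, 0.43 and 0.34. The G-box was in the upstream windows of 4 of the 9 that rose, CCA1 among them, and in 5 of all 12 tested morning genes. Of all windows 7.95% held it.

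On the evening side PRR5 had 18.8, 28.0 and 29.0 CPM in the double mutant and 57.5, 49.2 and 32.8 CPM in wild type, and fell by 0.88 ± 0.21 (adjusted p = 0.0148). Its groups were separate but wide, with double mutant replicate 1 lowest and wild-type replicate 1 highest. LUX had 20, 24.3 and 23.3 CPM in the double mutant and 35.6, 31.7 and 30 CPM in wild type, and fell by 0.52 ± 0.12 (adjusted p = 0.00931). PRR3, FKF1, whose product is a blue-light receptor of flowering time, and GI fell by 0.95 ± 0.17, 0.86 ± 0.22 and 0.72 ± 0.19. The evening element stood in the windows of PRR5, LUX and FKF1, 3 of the 5 that fell, and in 5 of all 12 tested daytime and evening genes. Of all windows 2.94% held it. RBG7, a glycine-rich RNA-binding protein gene under clock control, was the largest fall in mean CPM of all genes called, with 955, 1310 and 1080 CPM in the double mutant and 2620, 2370 and 2100 CPM in wild type (log2 fold change -1.08 ± 0.15, adjusted p = 0.000281).

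**Figure D4:**
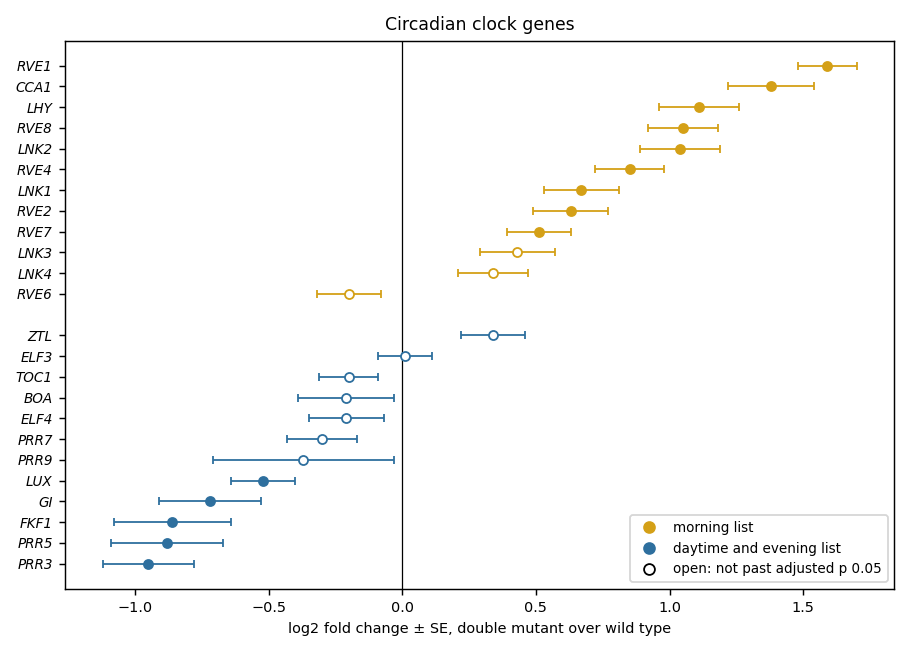
Log2 fold change, double mutant over wild type, with its SE (bars) for every tested gene of the morning list (yellow, top) and of the daytime and evening list (blue, bottom); filled points passed at an adjusted p under 0.05. From RVE1 at 1.59 to RVE7 at 0.51 the called morning genes lie right of 0, and from LUX at -0.52 to PRR3 at -0.95 the called evening genes lie left of it.

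Of 15 tested genes of starch degradation 5 fell, 33.3% against 5.47% of all genes tested, and 1 rose, 6.67% against 7.66%. AMY3, a plastid alpha-amylase gene, had 46.8, 64.4 and 56.7 CPM in the double mutant and 153, 112 and 108 CPM in wild type, and fell by 1.15 ± 0.15 (adjusted p = 0.000129). The disproportionating enzyme gene DPE1, the phosphorylase gene PHS1, the debranching enzyme gene ISA3 and the glucan phosphatase gene SEX4 fell by 0.55 to 0.84, and the beta-amylase gene BAM1 rose by 0.40 ± 0.10. Among 13 tested genes of sugar starvation, TPS8, TPS9 and TPS11 of the class II trehalose phosphate synthase family rose, the first 2 by 0.97 ± 0.15 and 0.98 ± 0.14. Of 12 tested sugar transporter genes the hexose carrier gene STP1 rose by 0.71 ± 0.18, a call that was lost without double mutant replicate 3 and without wild-type replicate 3. TPS11 and BAM1 were lost without double mutant replicate 3 or wild-type replicate 2, and TPS11 also without wild-type replicate 3 (adjusted p for all 3 genes = 0.0561 to 0.15).

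Among genes with a symbol in the table, the 5 largest rises in mean CPM were those of RCA, GGAT1, NIA2, FBA2 and GLU1. RBCS3B, a Rubisco small subunit gene without a symbol there, rose by more than the last 4 of these, with 4790 ± 557 CPM in the double mutant and 3190 ± 395 CPM in wild type (SD, n = 3 each). RCA (chr2:16570746-16573692), encoding Rubisco activase, had 8100, 8400 and 11100 CPM in the double mutant, against 5760, 4600 and 4120 CPM in wild type. The groups were separate, with double mutant replicate 3 highest (log2 fold change 0.93 ± 0.16, adjusted p = 0.00174). GGAT1 and GLU1, for an aminotransferase and the ferredoxin-dependent glutamate synthase of photorespiration, rose by 0.70 ± 0.15 and 0.89 ± 0.18. NIA2, a nitrate reductase gene, had 2240, 2220 and 2830 CPM in the double mutant and 1660, 1270 and 1450 CPM in wild type, and rose by 0.74 ± 0.16. FBA2, a chloroplast aldolase gene, rose by 0.54 ± 0.12, but not without double mutant replicate 3 or wild-type replicate 3 (adjusted p = 0.0513 and 0.0548). CAT2, the leaf catalase of photorespiration, had 777, 912 and 1250 CPM in the double mutant and 457, 380 and 332 CPM in wild type, and rose by 1.33 ± 0.20 (adjusted p = 0.000448), while CAT1 and CAT3 did not pass. Of 41 tested photosystem and light-harvesting genes 5 rose (LHCB2.1, LHCB4.3, PSAD2, PSBO2 and PETE1) and 1 fell, 12.2% and 2.44%, with a median of 0.03. Over all genes tested the shares were 7.66% and 5.47%. Without double mutant replicate 3 none rose. LHCB1.4 was the fall, at -0.71 ± 0.20. It belongs to a family of near-identical copies and lost its call without 4 of the 6 libraries (adjusted p = 0.0536 to 0.0936).

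Few members of each growth regulator list passed. Of 7 tested gibberellin oxidase genes the inactivating enzymes GA2OX6 and GA2OX2 fell, by 1.54 ± 0.19 and 1.34 ± 0.18, which is 28.6% of the list. GA2OX6 had 8.89, 6.96 and 8.47 CPM in the double mutant and 19.8, 22.2 and 28.8 CPM in wild type, and both genes kept their call without any single library. Of 10 tested DELLA and gibberellin receptor genes, GID1C rose by 0.47 ± 0.09 and RGL3, a DELLA gene that jasmonate induces, fell by 1.54 ± 0.34, which is 10% in each direction and near the 7.66% and 5.47% of all genes tested. RGA, another DELLA gene, had 60.5 ± 1.2 CPM in the double mutant and 51.2 ± 2.69 CPM in wild type and lay just outside the threshold (adjusted p = 0.0501).

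Of 20 tested photoreceptor, PIF and shade genes 7 rose and 1 fell, 35% and 5% of the list. Over all genes tested the shares were 7.66% and 5.47%. PKS4, of the phytochrome kinase substrate family, had 14.1, 7.84 and 12.4 CPM in the double mutant and 4.39, 2.22 and 2.18 CPM in wild type, and rose by 1.96 ± 0.30 (adjusted p = 0.000622). PIF1, ATHB2, HYH, HY5, CRY1 and PHYE rose by 0.28 to 0.68, and PIF4 fell by 0.61 ± 0.18 with overlapping groups. Without double mutant replicate 3 there were 3 rises and no fall, those of PKS4, ATHB2 and PIF1. Of 25 wall-loosening genes 6 rose and 2 fell, 24% and 8%, so the falls are near the share of all genes. Among them were XTH22, a touch-induced gene, with a rise of 0.97 ± 0.18, and XTH19, with a rise of 1.39 ± 0.22. The expansin gene EXPA5 had a fall of 0.95 ± 0.21. Among 11 auxin transport genes ABCB1, PIN3 and AUX1 rose by 0.32 to 0.47, 27.3% of the list. Among 18 Aux/IAA and GH3 genes GH3.5, IAA14 and IAA16 rose and IAA3 fell, 16.7% and 5.56%, the fall being near the share of all genes. NIT4 rose and NIT3 fell among 4 nitrilase genes, 25% in each direction in a very short list. Of 8 tested type-A response regulators, cytokinin-induced genes, ARR8 and ARR9 rose and ARR6 fell, 25% and 12.5%. Of the auxin, nitrilase and response regulator genes, GH3.5, NIT3, ARR8 and ARR9 kept their calls without any single library, while the other 8 lost theirs without at least 1 (adjusted p = 0.0556 to 0.156). Of the wall genes XTH18, XTH24, XTH25, XTH30 and XTH33 lost theirs (adjusted p = 0.0527 to 0.214).

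The immune lists differed in how many members passed. Of 23 tested salicylic acid and N-hydroxypipecolic acid genes WRKY38 rose and PR5 and EDS5 fell, 4.35% and 8.7% of the list, near the 7.66% and 5.47% of all genes tested. PR5 had 662, 711 and 695 CPM in the double mutant and 927, 1570 and 1260 CPM in wild type (log2 fold change -0.86 ± 0.24, adjusted p = 0.0292), and it passed only with all 3 libraries of each group or without wild-type replicate 1 (adjusted p elsewhere 0.0657 to 0.133). EDS5 and WRKY38 lost their calls without 3 libraries each (adjusted p = 0.0544 to 0.0898). PR1, the standard marker of this branch, had 3670, 3400 and 3210 CPM in the double mutant against 3590, 4200 and 3930 CPM in wild type, with overlapping groups and no call (adjusted p = 0.452). Of 12 tested NLR receptor genes 5 rose and none fell, 41.7% against 7.66% of all genes tested that rose. Among them were ADR1, RPS4, RPM1 and AT5G66900, with rises of 0.35 to 0.57. Only 2 of the list passed without double mutant replicate 3 or without wild-type replicate 3. Just 1 passed without wild-type replicate 2 or with the 6 libraries alone. ADR1, RPS4 and RPM1 each lost their call without some library (adjusted p = 0.0529 to 0.224). Of 19 tested genes of pattern recognition and early defence the receptor genes PEPR1 and PEPR2 fell, 10.5% against 5.47% of all genes tested. Among 15 tested indole glucosinolate and camalexin genes SOT16, CYP83B1, MYB34 and CYP79B3 fell, 26.7% of the list, SOT16 by 1.11 ± 0.15. None of 18 tested aliphatic glucosinolate genes passed. Of these, PEPR1, PEPR2, CYP83B1, MYB34 and CYP79B3 lost their calls without at least 1 library (adjusted p = 0.0514 to 0.132).

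Of the remaining lists, 4 of 17 senescence and chlorophyll breakdown genes rose, all 4 for NAC factors, 23.5% against 7.66% of all genes tested. NAC092, a positive factor of leaf senescence, had 75.7, 88.4 and 120 CPM in the double mutant and 43.9, 29.0 and 30 CPM in wild type, and rose by 1.47 ± 0.20 (adjusted p = 0.000369). ORS1, NAC016 and NAC029 rose by 0.62 to 1.57. With the 6 libraries alone ORS1 and NAC016 did not pass (adjusted p = 0.0831 and 0.0637). The other 13 genes of the list were not called, and its log2 fold changes ran from -4.99 to 1.57 with a median of 0.19. The heat shock list had 2 rises of 10 (HSFA7A and HSFB2A), flowering time 1 of 7 (SOC1), Rubisco and its activase 2 of 5 (RCA and RBCS3B), and stomatal genes 1 fall of 18 (BASL). Except for RCA these calls, and that of NAC029, were lost without double mutant replicate 3 and without wild-type replicate 3 (adjusted p = 0.0584 to 0.223). No gene passed among 16 of flavonoid synthesis, 13 of cell division and 3 phloem markers. The cell division list had a median of -0.58, and the summed level of its members was 119, 122 and 41.4 CPM in the double mutant and 84.1, 136 and 146 in wild type. Among TOPP genes TOPP1 rose by 0.35 ± 0.11 (adjusted p = 0.0416), a call lost without double mutant replicate 2 or 3 or wild-type replicate 1 or 3 (adjusted p = 0.0552 to 0.201), and the other 8 did not pass.

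Among genes with a symbol, separate groups and a mean of at least 5 CPM, SQE5 had the highest fold change. SQE5, a squalene epoxidase gene, had 16.1, 23.4 and 23.4 CPM in the double mutant, against 4.93, 2.17 and 4.2 CPM in wild type, and rose by 2.48 ± 0.30 (adjusted p = 0.000116). GPX7, a chloroplast glutathione peroxidase gene, had 20, 18.8 and 30.5 CPM in the double mutant and 7.5, 4.33 and 6.06 CPM in wild type, and rose by 1.95 ± 0.25 (adjusted p = 0.000187). The groups were separate in both. EXL1 (AT1G35140), LEA2, the cytochrome P450 gene CYP71B12, the linker histone gene HIS1-3, ERF055 and the bHLH gene UPB1 rose by 1.64 to 1.98. GSTF9, a glutathione transferase gene, completed the largest falls in CPM, at -0.53 ± 0.12.

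The double mutant was also contrasted directly with each single mutant, to see which of its named genes differ from them. Against topp4-1, 8676 genes passed, 43.3% of those tested, and against pp1r3-2, 7 genes passed, 0.0349% of those tested, while 1377 had an unadjusted p under 0.05. All 7 were lower in the double mutant. They included the cytokinin response gene ARR5 at 16.9 ± 2.78 CPM in the double mutant and a mean of 30.6 CPM in pp1r3-2, ARP9 at 15.5 ± 1.59 CPM and 36.5 CPM, and AT4G27450 at 151 ± 7.72 CPM and 234 CPM. Of the same 156 genes, none passed against pp1r3-2 (smallest adjusted p = 0.0999, log2 differences of -1.03 to 1.12, median SE 0.18), and 43 were higher and 50 lower than in topp4-1, where 21.4% of all genes tested were higher and 21.9% lower. All these contrasts share the double mutant libraries, so their values are given side by side.

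Some genes had a level in the double mutant that differed from topp4-1 and some did not pass that test. RCA, at 8100, 8400 and 11100 CPM in the double mutant, had 8410, 8490 and 10200 CPM in pp1r3-2 and 3220, 3690 and 3360 CPM in topp4-1, and the double mutant was higher than topp4-1 (adjusted p = 6.2e-06). RVE1, LHY, CCA1 and RVE8 were also higher in the double mutant than in topp4-1 (adjusted p = 1.51e-05, 2.4e-05, 0.00075 and 0.00103). Of 12 tested morning clock genes 7 were higher and 1 lower, against 21.4% and 21.9% of all genes tested. PR1 had 9980, 10400 and 9340 CPM in topp4-1 and was lower in the double mutant (adjusted p = 2.11e-06). HIS1-3 had 8.45, 9.80 and 16.4 CPM in the double mutant, 93.5, 93.1 and 68.0 CPM in topp4-1 and 5.09, 2.89 and 2.55 CPM in wild type, and the double mutant was lower than topp4-1 (adjusted p = 8.67e-06).

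The large falls of jasmonate and cold genes had another layout. CYP94C1 had 4.3, 6.41 and 6.20 CPM in pp1r3-2 and 6, 7.17 and 6.26 CPM in topp4-1, and the double mutant did not pass against topp4-1 (adjusted p = 0.937). The same held for COR15A, OPR3, TAT3 and RD29A (adjusted p = 0.954, 0.548, 0.987 and 0.12), where the libraries of the double mutant and of both single mutants lay below those of wild type. Over the 20 tested cold and drought genes, though, 10 were lower and 2 higher in the double mutant than in topp4-1, with a median log2 difference of -0.64. XERO2, ERD10 and COR47 were among the lower ones, at -1.32 ± 0.22, -0.89 ± 0.18 and -0.91 ± 0.16 (adjusted p = 0.000164, 0.00119 and 0.000324). Of the jasmonate lists, 3 of 11 JAZ, 3 of 10 turnover and 1 of 13 synthesis genes were lower than in topp4-1, and 2, 0 and 3 were higher. The counts of these lists and of the cold list are read against 21.9% lower and 21.4% higher over all genes tested. CYP94B3 did pass, with 4.32, 2.89 and 3.11 CPM in topp4-1 (adjusted p = 1.98e-06). A p that misses the threshold does not show equal levels.

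**Figure D5:**
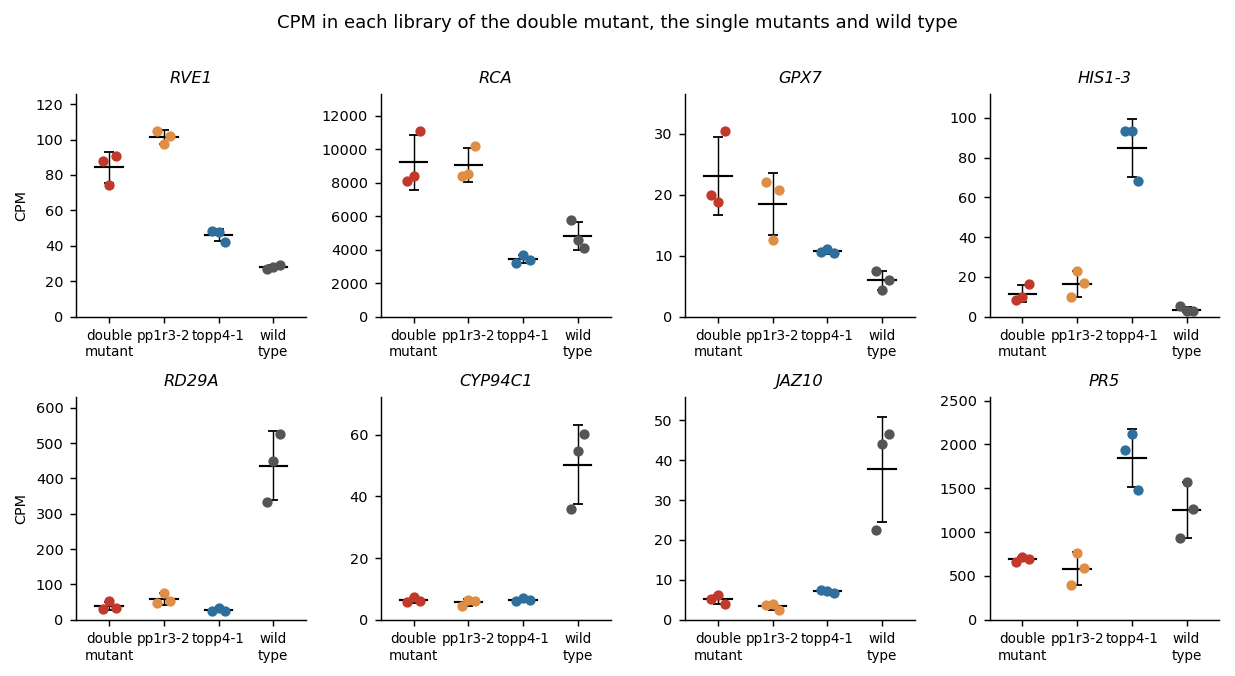
CPM in each library (points) with the group mean and SD (bars, n = 3) for 8 genes in the double mutant, pp1r3-2, topp4-1 and wild type, from left to right. For RVE1 and RCA the double mutant and pp1r3-2 lie above topp4-1 and wild type, for HIS1-3 topp4-1 is highest at 68.0 to 93.5 CPM, and for RD29A, CYP94C1 and JAZ10 wild type is the high group.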

How the data were processed

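The authors deposited 1 table of unnormalized read counts per gene for the 15 libraries, used as deposited. Per the labels' protocols, poly-A RNA went into NEBNext Ultra libraries. The aligner was HISAT2 2.0.5 according to the submitters' processing notes. Which program counted the reads, with what strand setting and on which build and annotation, is not given in the sources used here. Reads of a gene and its antisense partner, and of near-identical copies such as LHCB1, RBCS or PDF1.2 genes, may therefore be mixed or split. Of 32548 identifiers found in the TAIR10.1 annotation, 99.95% had the same start and end as in the table.

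Genes were kept with edgeR's filterByExpr (minimum count 10, minimum total 15). Counts were scaled by TMM and fitted over all 15 libraries with the quasi-likelihood test of edgeR 4.0.16 in R 4.3.3, with 10 residual degrees of freedom, a biological coefficient of variation of 14.2% and Benjamini-Hochberg adjustment over all 20037 genes. Each SE was obtained as the size of the log2 fold change over √F. CPM are on TMM-scaled library sizes. The counting interval covers counting error only.

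Whether the 3 libraries of a group are from separate plants is not in the labels. The p-values then reflect only the spread among libraries, which may be technical. No 2 libraries of a group agreed within sampling noise (chi-square per gene 8.16 at the least). On simulated counts for this comparison with 19798 genes, 40.3% of 1.5-fold, 74.6% of 2-fold and 92.4% of 4-fold changes were recovered. Only 67, 67 and 66 genes were given these changes, around means over all libraries, while 13.1% of genes were called in the data. No library was made to stand apart. The rates therefore need not hold for the real comparison.

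Named genes were first the 10 highest and 10 lowest log2 fold changes and the 5 largest rises and 5 largest falls in mean CPM. These were taken among called nuclear protein-coding genes with separate groups, a symbol and a mean of at least 5 CPM. Up to 4 members of each list by adjusted p, and TOPP1 to TOPP9, were taken without these requirements. Other list members that passed, and PR1, LOX2, JRG21, MYC3, MYC4, RD29B, PDF1.2A, CBF1 to CBF3, DREB1E and DREB1F, were added after their values were seen. The 41 lists (549 entries, 4 lists being markers of other tissues) and the comparison were chosen with earlier results of these data known. Alternatives were RLE size factors, other count filters, DESeq2 1.42.0, the 6 libraries alone, a replicate block, a 2-fold minimum and leaving out each library. Some genes of the lists are counted but not reported here by name.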

Additional observations from a re-analysis of the deposited data

How the results depend on the processing

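The main count of 2631 calls (1534 higher, 1097 lower) stayed within 1.5 times under RLE size factors (2595), no count filter (2354), a minimum of 1 CPM in 3 libraries (2694) and DESeq2 (3308), and 2570, 2338, 2572 and 2625 of those calls were shared with it. Fitting the 6 libraries alone gave 1342 calls, 813 higher and 529 lower, and a 2-fold minimum gave 546, 247 higher and 299 lower. Leaving out 1 library gave 1379 to 3008 calls, 754 to 1801 higher and 625 to 1207 lower, with the fewest without wild-type replicate 3 and the most without wild-type replicate 1. The cause was not tested. The fit with the replicate number as a replicate block gave 2842 calls, 1589 higher and 1253 lower. Same-numbered double mutant and wild-type libraries had correlations of deviations from their group means of -0.34, 0.04 and -0.32, and differently numbered ones of up to 0.42. The numbers showed no sign of pairing the samples, but with 3 libraries a group this is a weak check.

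Of the 156 called genes followed, 2 lost their call under RLE size factors, 7 with no filter, 1 with the 1 CPM minimum (which left DREB1F untested), 0 under DESeq2, 3 under the block and 51 with the 6 libraries alone, and 13 to 50 when 1 library was left out. The genes that changed sign were not called. TOPP2 (0.01) gave 0 with the 1 CPM minimum, and TOPP4 and TOPP6 (each -0.01) gave 0 with the 6 libraries alone. With 1 library left out, log2 fold changes ran from -0.01 to 0.18 for TOPP5, -0.06 to 0.06 for TOPP2, -0.02 to 0.12 for TOPP3, -0.07 to 0.06 for TOPP4, -0.08 to 0.02 for TOPP6, -0.41 to 0.31 for CBF1 and -0.28 to 0.11 for CBF2.

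With 3 libraries a group, many changes under 2-fold can be missed, and genes at about 1 CPM, such as the CBF genes, are limited by their counts.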

Other observations

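Protein families outside the lists were looked through by the domain names in the deposited table, after the values were seen. A family was kept with at least 10 tested genes and at least 30% of them called. Of 493 families of that size 58 passed, and 4 are described. Since that share chose them, their counts are a description only. Among 145 tested genes with an NB-ARC domain, the nucleotide-binding part of plant immune receptors, 54 rose and none fell in the double mutant, with a median log2 fold change of 0.42. There were 20 rises without double mutant replicate 3, 25 and 23 when replicate 2 or 3 of wild type was dropped, and 47 to 65 without any 1 of the other 3 libraries. Many of these genes are close copies in clusters, so their reads may be shared. Of 10 tested NF-YA genes, for a subunit of the CCAAT-binding factor, 7 rose and none fell, with 2 rises without any 1 of these same 3 libraries, 4 without double mutant replicate 2 and 6 without replicate 1 of either group. Of 18 tested B-box zinc finger genes 6 rose and none fell, with 5 to 8 rises without 1 library. COL2 had 60.9 ± 7.15 CPM in the double mutant and 20.6 ± 5.63 CPM in wild type (SD, n = 3 each; edgeR adjusted p = 9.91e-05), and COL7 had 24.7 ± 3.26 CPM in the double mutant and 9.14 ± 3.5 CPM in wild type (edgeR adjusted p = 0.00433).

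Falls were common among tubulins and the related FtsZ genes of plastid division. Of 20 tested genes 8 fell and 1 rose, with a median of -0.37, with 3 falls without double mutant replicate 3 and 6 to 8 without any other library. FTSZ1 had 53.9 ± 4.86 CPM in the double mutant and 78.2 ± 5.9 CPM in wild type (SD, n = 3 each; edgeR adjusted p = 0.00628).

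Of 150 tested loci that the table lists without annotation, 11 rose and 7 fell, near the shares of 7.66% and 5.47% over all genes tested. The highest log2 fold change was that of a locus on the minus strand (chr1:13126785-13128125), 7.51 ± 0.54 (edgeR adjusted p = 8.72e-07), with 266, 309 and 375 counts in the double mutant and 5, 0 and 0 counts in wild type. The single mutants pp1r3-2 and topp4-1 had 160 to 300 and 48 to 52 counts. It was singled out after its values were seen.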
